A study of Mus musculus with 4 samples.

Results

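The genes described here are 9 genes of antigen presentation by the major histocompatibility complex (MHC), chosen by symbol from the 19465 genes of the feature table and not by any measured value. Cd74, H2-Aa, H2-Ab1, H2-Eb1, H2-DMa and Ciita belong to the class II side, and B2m, Tap1 and Nlrc5 to the class I side. All 9 were found. They were followed in 4 Visium sections, 1 of the primary tumor (PT) and 1 of the lung from each of 2 BALB/c mice (A is the mouse with the lower number in the labels and B the other, as in PT A or lung B). The mice had received 100000 cells of the syngeneic mammary carcinoma line 4T1 in the mammary fat pad at 8 weeks of age, and both tissues were taken 28 days later. No section came from a mouse without 4T1 cells, so the lung values are those of tumor-bearing animals, and each tissue has n = 2 sections, 1 per mouse.

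MHC class I molecules carry peptides from inside the cell to CD8+ T cells and are found on nearly all nucleated cells. Their heavy chain pairs with beta-2 microglobulin, the product of B2m. The transporter of which Tap1 is a subunit moves peptides into the endoplasmic reticulum, and Nlrc5 is a transactivator of class I genes. MHC class II molecules show peptides from ingested material to CD4+ T cells and belong mainly to dendritic cells, macrophages and B cells. H2-Aa and H2-Ab1 encode the chains of the I-A molecule, H2-Eb1 a chain of I-E, Cd74 the invariant chain that guards the groove on the way to the endosome, H2-DMa a chain of the molecule that helps load the peptide, and Ciita the transactivator that class II genes depend on. Interferon gamma induces both transactivators.

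In GRCm38, 5 of the genes lie on chromosome 17, namely H2-DMa (chr17:34119541-34139101), Tap1 (chr17:34187553-34197225), H2-Ab1 (chr17:34257689-34269419) and H2-Eb1 (chr17:34305867-34316674) on the plus strand and H2-Aa (chr17:34282744-34287823) on the minus strand. The others are B2m (chr2:122147686-122153083), Nlrc5 (chr8:94434356-94527272) and Ciita (chr16:10480059-10528418), all on the plus strand (Cd74 is given with its levels). In RefSeq promoter windows of the build GRCm38.p6, which run from 250 bases before to 50 bases after a start, 5 of the 9 genes had an entry (H2-Aa, H2-Eb1, H2-DMa, B2m and Tap1). The 150 bases before the start of 2 class II genes and 1 class I gene are shown, 5′ to 3′ on the strand of the gene, because the levels of the sections separated the class II from the class I side. Capitals mark matches on either strand to the Y box letters CTGATTGG and the X box letters GCAACNGATG known from class II promoters, to the cyclic AMP response element TGACGTCA and to the interferon-stimulated response element GAAANNGAAA.
H2-Aa (chr17:34287824-34287973, minus strand): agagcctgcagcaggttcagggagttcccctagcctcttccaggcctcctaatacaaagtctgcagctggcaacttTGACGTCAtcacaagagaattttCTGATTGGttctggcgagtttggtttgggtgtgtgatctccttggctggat
H2-Eb1 (chr17:34305717-34305866, plus strand): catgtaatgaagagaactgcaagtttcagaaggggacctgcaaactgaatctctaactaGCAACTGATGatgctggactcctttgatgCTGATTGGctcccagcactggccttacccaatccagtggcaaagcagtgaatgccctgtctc
B2m (chr2:122147537-122147686, plus strand): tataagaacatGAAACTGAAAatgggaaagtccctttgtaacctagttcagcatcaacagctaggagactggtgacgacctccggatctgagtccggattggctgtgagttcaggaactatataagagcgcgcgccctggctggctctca
The Y box letters were found, on either strand, in H2-Aa, in H2-Eb1 and in Tap1, and in 4.1% of the 32851 promoter windows of the mouse. The X box letters were found in H2-Eb1 alone of these genes and in 0.192% of all windows, and the cyclic AMP response element in H2-Aa and in 1.79%. The interferon-stimulated response element letters were found in B2m and in 3.44%, while the gamma-activated site TTCNNNGAA was in none of the 6 windows of the 5 genes and in 8.3% of all windows. These are matches of letters in the reference genome, which is not that of BALB/c, and not binding sites.

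Of 9445 spots under tissue, 9339 had more than 200 genes and were used. The number of spots in the order PT A, lung A, PT B and lung B was 2490, 1697, 2372 and 2780, with 13532158, 11122812, 10890154 and 30240176 unique molecular identifiers (UMIs). Levels are given as CPM, the UMIs of a gene scaled to the total of its section. The tissue labels fitted their markers, since 7 genes of alveolar type 2 cells summed to 54.7 and 76.1 CPM in the PTs against 11799.6 and 6924 CPM in the lungs. PT B stood apart in its background. The 1178 olfactory and vomeronasal receptor genes, which these tissues are not known to use, averaged 7.86 CPM per gene there against 0.155 to 0.737 CPM in the other sections, and their 95th percentile of 19.0 CPM lay just under the level of Ciita (20.3 CPM). The class II chains of the H2 region vary between strains, and how well the probes fit the BALB/c alleles was not tested, so levels are compared between sections and not between genes.

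On the class II side, PT A was the highest of the 4 sections for every gene, and PT B was the lowest for every gene except Ciita. Of all 15267 genes tested below, 20.5% were highest in PT A, 15.8% lowest in PT B and 1.95% both. Cd74, on the plus strand of chromosome 18 (chr18:60803848-60812652), had 2976 CPM in PT A, 1321 CPM in lung A, 482 CPM in PT B and 1223 CPM in lung B. The PTs thus lay on both sides of the lungs, and they differed 6.17-fold from each other while the lungs differed 1.08-fold.
H2-Aa had 238, 59.3, 25.1 and 38.7 CPM in the same order. H2-Ab1 had 439, 140.2, 54.6 and 110.1 CPM, and H2-Eb1 had 271, 108, 34.5 and 72.0 CPM. For these 3 genes of the peptide-binding chains, the PT values again enclosed those of both lungs, with 9.50-fold, 8.04-fold and 7.84-fold between the PTs and 1.53-fold, 1.27-fold and 1.51-fold between the lungs. H2-DMa, the loading chain, had 141, 61.3, 30.5 and 48.8 CPM and followed the same order, with 4.62-fold between the PTs. Ciita, the transactivator, had 37.1, 26.8, 20.3 and 13.1 CPM. Its counts were low (221 to 502 UMIs per section), the lowest of the members except in lung A, where Nlrc5 had 295 UMIs against its 298. Its PTs differed 1.83-fold and its lungs 2.04-fold. With the mean receptor gene of each section taken off as background, Ciita had 36.4 CPM in PT A and 12.4 CPM in PT B, so that PT B was then just below lung B for Ciita as well and the PTs differed 2.92-fold.

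The class I side had another order, with both PTs above both lungs for each of its 3 genes, an order that 37.8% of all genes tested had. B2m had 5943 CPM in PT A and 5633 CPM in PT B against 1573 CPM in lung A and 2143 CPM in lung B. The PTs differed 1.05-fold and the lungs 1.36-fold, and the PT exceeded the lung 3.78-fold in mouse A and 2.63-fold in mouse B. Nlrc5, the class I transactivator, had 214 and 123 CPM in the PTs against 26.5 and 72.1 CPM in the lungs, with the PT 8.06-fold and 1.71-fold above the lung of the same mouse. Tap1 had 178 and 87.1 CPM in the PTs and 69.7 and 58.4 CPM in the lungs, so its groups were separate but close.

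**Figure D1:**
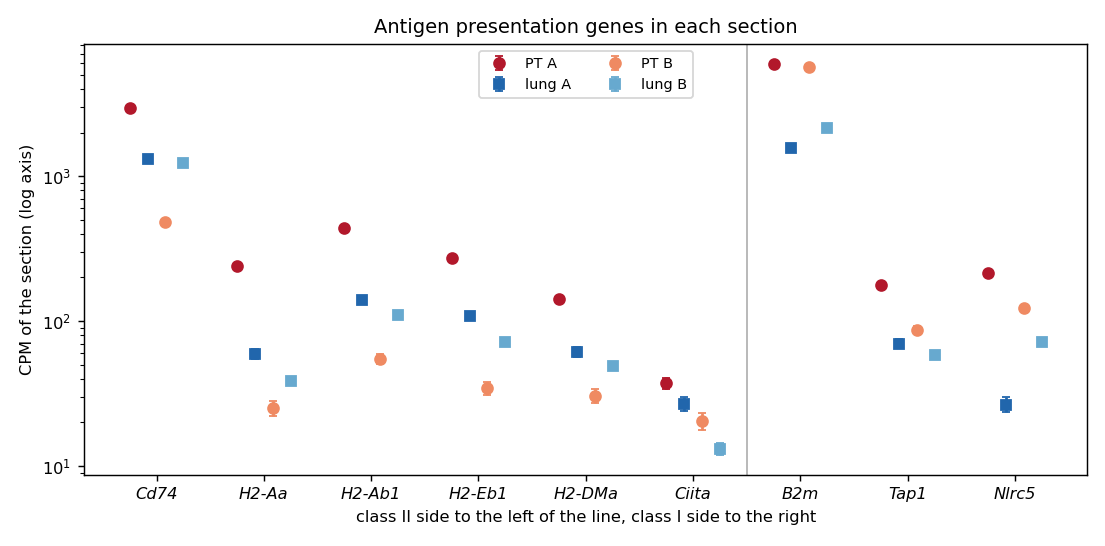
Level of each antigen presentation gene in the 4 sections, in CPM on a log axis, with circles for the PTs, squares for the lungs and bars for the 95% Poisson interval, which covers counting error only. The PTs of the 2 mice lie far apart on the class II side, from 482 to 2976 CPM for Cd74, and close together for B2m.

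Lung against PT was then tested over all genes on the summed UMIs of each section with the quasi-likelihood test of edgeR at an adjusted p of 0.05 (Benjamini-Hochberg). Of 15267 genes tested, 1139 were called (7.46%), 963 higher and 176 lower in the lung, whereas none of the 9 members was called. Without adjustment, 2 of the 9 had a p under 0.05, as had 23.2% of all genes, and DESeq2 called 2 members lower, with 3827 of 18565 genes called (20.6%) and 2120 lower (11.4%). For Nlrc5 the difference, lung minus PT on the log2 scale, was -1.55 with a standard error of 0.48 (edgeR adjusted p = 0.0942). B2m had -1.36 with a standard error of 0.52 (edgeR adjusted p = 0.164) and Tap1 -0.75 with one of 0.44 (edgeR adjusted p = 0.347). On the class II side the estimates ran from -1.14 for H2-Aa to -0.17 for Cd74, with standard errors of 0.53 to 0.82, and none passed the test (edgeR adjusted p of 0.456 to 0.930). With the mouse as a block, 1817 genes were called (11.9%), 417 of them lower (2.73%), and Nlrc5 was the 1 member among them, at -1.59 (edgeR adjusted p = 0.00363). A crossed block, joining the PT of each mouse with the lung of the other, also called 1 member, among 2565 of 15267 genes. The mouse call is thus not particular to the true pairing. Over 13 alternative settings, the adjusted p ranged from 0.0029 to 0.649 for Nlrc5, and from 0.0222 to 0.880 for B2m, both of which stayed lower in the lung in each setting. Without PT A the 6 class II members and Tap1 turned higher in the lung, and H2-Ab1 (1.83, edgeR adjusted p = 0.0361) and H2-Eb1 (2.03, edgeR adjusted p = 0.0169) were called, in a fit that called 6604 of 19140 genes (34.5%) and 1387 higher (7.25%). That fit sets PT B alone, the section with the raised background, against 2 lungs, so its spread comes from the lungs and the lone PT is assumed to vary like them. Without PT B, where PT A alone stands for the PT and the same holds, H2-Aa was called lower (-2.09, edgeR adjusted p = 0.00986), as was Nlrc5 (edgeR adjusted p = 0.0145), with 1251 of 15544 genes called (8.05%) and 235 lower (1.51%).

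A wider list of the pathway, 55 genes with none of the 9, gave 49 genes that could be tested. In lung against PT, 1 of them was higher and 1 lower, that is 2 of 49 against 7.46% of all genes. Ifngr1, a chain of the interferon gamma receptor, rose from 70.0 and 73.9 CPM in the PTs to 479 and 251 CPM in the lungs (log2 difference 2.69, standard error 0.49, edgeR adjusted p = 0.0135). H2-Q4, a class Ib heavy chain, fell from 146 and 137 CPM to 25.4 and 45.3 CPM (log2 difference -1.74, standard error 0.37, edgeR adjusted p = 0.0232). With the receptor background subtracted neither was called (edgeR adjusted p = 0.0870 for Ifngr1 and 0.0661 for H2-Q4). Ifngr1 also missed the threshold with upper quartile scaling (edgeR adjusted p = 0.0633), and H2-Q4 without PT A (edgeR adjusted p = 0.0750) and without lung A (edgeR adjusted p = 0.196). With the mouse as a block, H2-DMb2, a beta chain of the loading molecule, was also called at 1.40 (edgeR adjusted p = 0.0337), as was H2-T24, another class Ib gene, at 1.45 (edgeR adjusted p = 0.0119). H2-DMb2 had 22.5 and 11.6 CPM in the PTs and 58.6 and 20.4 CPM in the lungs, the opposite order to its partner H2-DMa in mouse A. The other beta chain, H2-DMb1, had 46.3 CPM in PT A and 12.9 CPM in lung A, the order of H2-DMa in that mouse. Of 24 class I genes on the list, 21 had estimates below 0 with a median of -0.69 on the log2 scale, against a median of -0.0046 over all genes, and of 17 class II genes 10 had estimates below 0 with a median of -0.20. These rest on single sections. Without PT A 13 of 24 class I genes were below 0 with a median of -0.02, and 6 of 18 class II genes with a median of 0.41, while without lung B 7 of 18 class II genes were below 0 with a median of 0.20. Genes of the H2-Q, H2-T and H2-K families are close copies of each other, so their UMIs may be divided unevenly among them.

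The summed macrophage markers, like the class II genes, were highest in PT A, but in the lungs their order was the opposite one. The 10 markers of macrophages (such as Adgre1, Csf1r and C1qa) summed to 2295, 609, 503 and 1203 CPM in PT A, lung A, PT B and lung B, whereas all 6 class II members were higher in lung A than in lung B. The sum was led by the C1q genes (C1qa, C1qb and C1qc), and single markers had other orders, with Csf1r highest in lung A (107 CPM) and Mrc1 in lung B (180 CPM). Per UMI of these markers, Cd74 had 1.30, 2.17, 0.958 and 1.02 UMIs, a span of 2.17 to 0.958 instead of the span of 2976 to 482 CPM. The PT values of Cd74 were then close (1.30 and 0.958), and lung A was the highest. Other class II members differed more between PT A and PT B. H2-Aa had 0.104 and 0.0498 per macrophage-marker UMI, H2-Ab1 0.191 and 0.109, and H2-Eb1 0.118 and 0.0686. H2-DMa was close (0.0614 and 0.0606), and Ciita was higher in PT B (0.0162 and 0.0403). B2m per macrophage-marker UMI was 2.59, 2.58, 11.2 and 1.78, with PT B the highest. In sums over tissue, fewer cells of a type and less RNA per cell cannot be told apart, and the part of the macrophage share in the Cd74 levels was not tested. The 14 interferon-induced genes (such as Gbp2, Igtp and Cxcl9) summed to 2058, 534, 740 and 692 CPM, again highest in PT A. Neutrophil markers summed to 2681 and 11585 CPM in the PTs and to 83664 and 33939.8 CPM in the lungs.

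Spots were then described one by one, after thinning each to 1000 UMIs, since the median depth ran from 1820 UMIs in PT B to 9174.5 in lung B. At this depth Cd74 was detected in 82.6% of spots of PT A, 67.4% of lung A, 28.1% of PT B and 64.3% of lung B. Without thinning the shares were 83.8%, 97.8%, 48.9% and 97.9%, and both lungs then lay above PT A. Thinning left out 886 of 2490 spots of PT A and 5 to 56 spots of the other sections. B2m was detected in 99.5%, 77.2%, 97.6% and 80.7% of thinned spots, which keeps both PTs above both lungs. Nlrc5 was detected in 19.0%, 2.70%, 9.53% and 6.03%. H2-Ab1, in 31.1%, 12.3%, 5.43% and 10.1%, had the order of the class II levels. Ciita reached 3.26%, 2.60%, 4.46% and 1.36%, against a mean over the receptor genes of 0.127%, 0.0247%, 1.84% and 0.0273%. At this depth its highest share came from the section with the highest background. After thinning to 2000 UMIs Ciita reached 6.88%, 5.11%, 4.56% and 2.67%, and without thinning 15.5%, 15.4%, 8.81% and 12.3%, with PT A the highest in both.

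Levels also varied within sections. Summed over its 6 genes, the spots of PT A had a median of 3303 CPM and a 90th percentile of 7732 CPM, and the 10th percentile was 0. In PT B the median was 434 CPM, and 62.8% of spots had at least 1 UMI of these genes, against 88.6% in PT A. The lungs had medians of 1418 and 1215 CPM and 90th percentiles of 2785 and 2753 CPM. Cd74 reached 169 UMIs in its highest spot in PT A, 119 in lung A and 89 in each section of mouse B, against means of 16.2, 8.66, 2.21 and 13.3 UMIs per spot. The class I side, led by B2m, had a 10th percentile of 2783 CPM against a median of 5964 CPM in PT A. In lung A the 10th percentile was 852 CPM against a median of 1555 CPM on the class I side and 684 against 1418 CPM on the class II side. In PT A 886 spots had under 1000 UMIs, where a sparse gene is often at 0, and the part of depth in its spread was not tested.

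**Figure D2:**
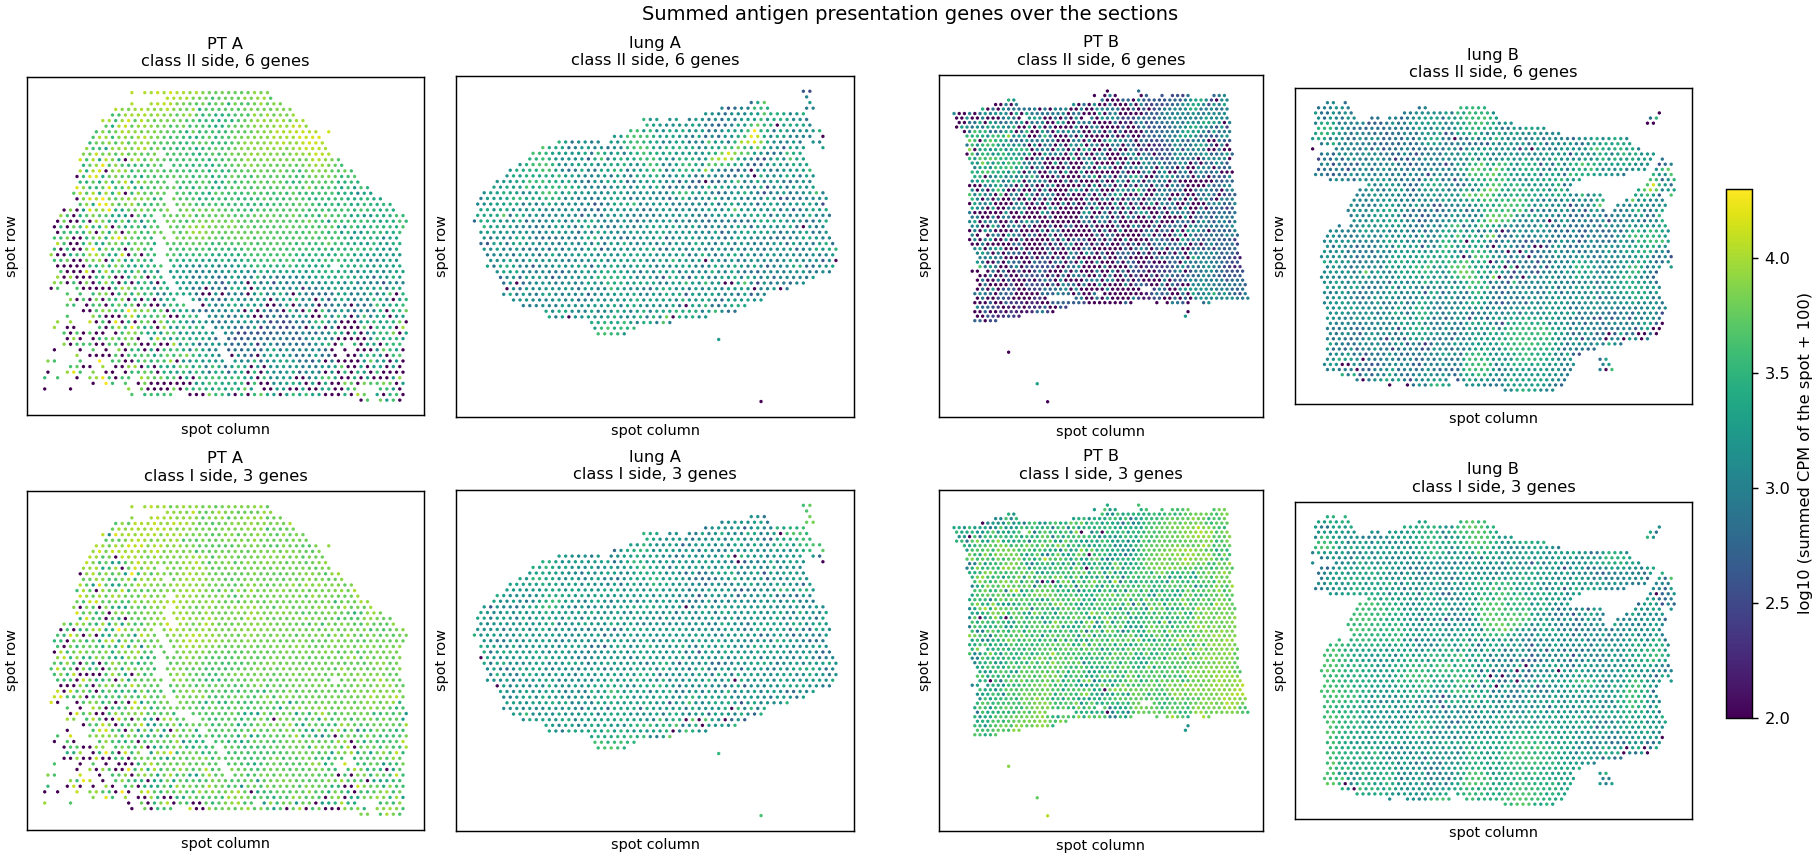
Summed level of the 6 class II side genes (top) and the 3 class I side genes (bottom) in each spot, drawn at its row and column of the slide, as log10 of CPM + 100. In PT A the class II sum is high in the upper part of the section and low in the lower part, in lung A a small group of spots stands out near the upper edge, and the class I sum covers both PTs.

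Neighboring spots had like values for the abundant members. Moran's I, which is 0 for a random layout and near 1 for smooth patches, was 0.386, 0.280, 0.321 and 0.439 for Cd74 and 0.180, 0.128, 0.311 and 0.503 for B2m in PT A, lung A, PT B and lung B. The summed receptor genes gave 0.539, 0.0798, 0.872 and 0.392, above Cd74 in PT A and PT B and below it in both lungs, and the part of the background in the values of the members was not tested. Across spots Cd74, H2-Aa, H2-Ab1 and H2-Eb1 were correlated with each other most in PT A, where Spearman's rho was 0.382 to 0.448 over 2490 spots. The pairs of B2m, Tap1 and Nlrc5 had medians of 0.222 in PT A, 0.0656 in lung A, 0.278 in PT B and 0.237 in lung B. Among Cd74, H2-Aa, H2-Ab1 and H2-Eb1 rho was 0.135 to 0.268 in lung A, 0.166 to 0.223 in PT B and 0.190 to 0.326 in lung B. In lung B the highest value of all pairs, 0.386, was that of B2m with Nlrc5, whose rho in the other sections was 0.0990 to 0.216. Class II with class I genes had median values between 0.0361 in lung A and 0.263 in PT A. The spots of a section share a library and its background and differ in depth, and sparse counts lower these values, so they are given as descriptions.

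**Figure D3:**
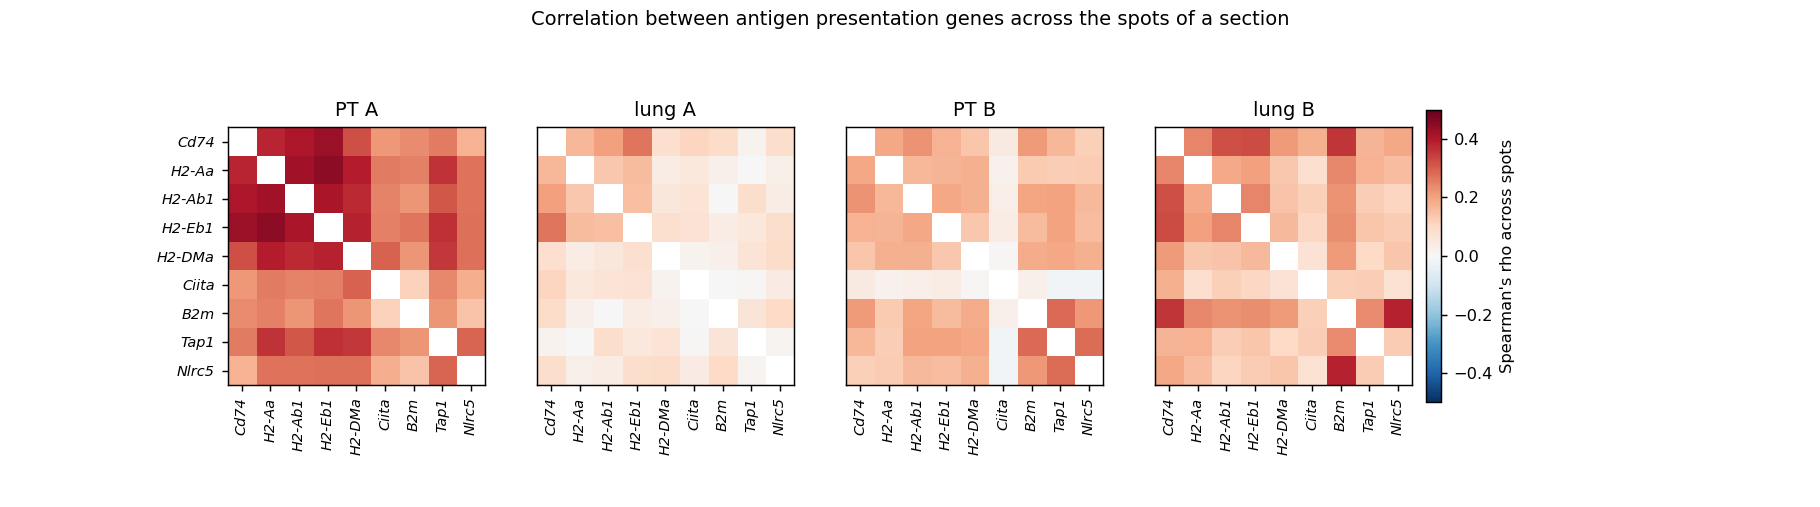
Spearman's rho between the 9 genes across the spots of each section, on CPM per spot, from blue (negative) to red (positive). The block of class II genes is darkest in PT A, and in lung B the pairs of B2m with Nlrc5 and with Cd74 stand out.

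Among 6798 genes with at least 0.1 UMIs per spot in each section, the 5 outside the members that followed Cd74 most closely, by the mean Pearson correlation of log CPM over the 4 sections, were C1qa, C1qc, Lmna, Gbp4 and Hist2h2bb, with 0.266 to 0.223. C1qa and C1qc encode chains of complement C1q and are on the macrophage list, and Gbp4 is an interferon-induced guanylate-binding protein on the interferon list. H2-Eb1 (0.276) and H2-Ab1 (0.265) followed Cd74 about as closely as C1qa. The 5 genes nearest to B2m were Ctsl, Mtap, Spp1, Pabpc1 and Rack1, with 0.328 to 0.277. Ctsl encodes cathepsin L, Spp1 osteopontin, and Pabpc1 and Rack1 belong to the translation machinery, while Cd74 followed B2m with 0.190. C1qa had 816, 111, 147 and 380 CPM in PT A, lung A, PT B and lung B, an order in which PT A was again the highest.

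To compare places within a section, the spots were split by marker lists on which no member stands. In each of 10 depth bins, the 25% of spots with the highest share of UMIs on a list was called rich, and the sums of rich and other spots were compared in all 4 sections by edgeR with the section as a block. The section is the replicate here, and the 4 sections come from 2 mice.

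Spots rich in interferon-induced genes had more of 7 of the 9 members. In this comparison 375 of 13628 genes were called (2.75%), and 177 were higher (1.3%). H2-Aa was 1.74-fold higher in the rich spots of PT A, 1.35-fold in lung A, 2.08-fold in PT B and 1.81-fold in lung B (log2 difference 0.72, standard error 0.09, edgeR adjusted p = 0.00252). H2-Eb1 was 1.78-fold, 1.41-fold, 1.94-fold and 1.78-fold higher (0.72, standard error 0.08, edgeR adjusted p = 0.00115), so both chains moved up in every section. Cd74 rose by 0.69 (edgeR adjusted p = 0.00545), H2-Ab1 by 0.62 (edgeR adjusted p = 0.0259) and H2-DMa by 0.51 (edgeR adjusted p = 0.0259). On the class I side Tap1 was 1.26-fold (lung A) to 1.86-fold (lung B) higher (0.60, standard error 0.08, edgeR adjusted p = 0.00555), and Nlrc5 1.16-fold, 1.69-fold, 1.30-fold and 1.55-fold higher (0.41, standard error 0.08, edgeR adjusted p = 0.0259). Ciita missed the threshold with a value of 0.63 and a standard error of 0.16 (edgeR adjusted p = 0.0577), and B2m with 0.18 and 0.07 (edgeR adjusted p = 0.226), at 1.09-fold, 1.26-fold, 1.04-fold and 1.32-fold. Without PT B the calls fell to 3 members, with 70 of 13052 genes called (0.536%), and without lung B to 4, with 82 of 13633 (0.601%). Of the wider list, 15 of 48 genes were higher and none lower, 11 of them class I genes such as Psmb10 (0.60), a subunit of the immunoproteasome, and H2-K1 (0.33), a classical heavy chain. The others included H2-DMb1 (0.76), Ctss (0.34), which cuts the invariant chain, and Irf1 (0.40), a transcription factor that interferon induces. The median of the wider list was 0.20 against -0.03 over all genes.

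Spots rich in the 10 macrophage markers had more of 5 members, all of the class II side. Alveolar macrophage markers, a separate list, are given below. Here 53 of 13682 genes were called (0.387%), and 27 were higher (0.197%). Cd74 was 1.71-fold, 1.53-fold, 1.62-fold and 1.33-fold higher in the rich spots of PT A, lung A, PT B and lung B (log2 difference 0.55, standard error 0.10, edgeR adjusted p = 0.0432). H2-Aa was 1.80-fold, 1.86-fold, 1.77-fold and 1.47-fold higher (0.71, standard error 0.09, edgeR adjusted p = 0.0175). Both were higher in the rich spots of every section. As an interaction, the lung effect minus the PT effect was -0.33 for Cd74 (standard error 0.13, edgeR adjusted p = 0.315). For H2-Aa it was -0.23 (0.14, edgeR adjusted p = 0.556), so neither difference passed the threshold. In the split itself H2-Eb1 (0.65, edgeR adjusted p = 0.0191), H2-Ab1 (0.58, edgeR adjusted p = 0.0315) and H2-DMa (0.53, edgeR adjusted p = 0.0320) were called as well. Ciita (0.33, edgeR adjusted p = 0.257), Tap1 (0.29, edgeR adjusted p = 0.182), Nlrc5 (0.31, edgeR adjusted p = 0.238) and B2m (0.07, edgeR adjusted p = 0.854) were not. Of 48 genes of the wider list edgeR called none, with 15 at an unadjusted p under 0.05 (10.6% of all genes), and DESeq2 was not counted for that list. None of the 5 calls was made without PT B, without lung B, or when the spots were split without depth bins. In those fits hardly any gene was called, 0 of 13087 (0%), 6 of 13698 (0.0438%) and 0 of 13638 (0%). Cd74 stayed at 0.49 to 0.62 without 1 section and at 0.55 without bins, and 7 or 8 of the 9 members had an unadjusted p under 0.05 in those 3 fits, as had 9.82%, 5.22% and 10.4% of all genes.

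Spots rich in T and NK cell markers had more of 4 members, with 23 of 13632 genes called (0.169%) and 22 higher (0.161%). Cd74 rose by 0.30 (standard error 0.05, edgeR adjusted p = 0.000806), H2-Aa by 0.44 (0.06, edgeR adjusted p = 0.000243), H2-Ab1 by 0.36 (0.05, edgeR adjusted p = 0.000453) and H2-Eb1 by 0.41 (0.05, edgeR adjusted p = 8.64e-05). In PT B the 12 markers summed to 74.9 CPM against the 94.3 CPM that 12 receptor genes of mean level would give, so they did not exceed the background there, whereas the other sections had 51.1 to 141 CPM against 1.86 to 8.84. The rich spots of PT B had 1.28-fold the Cd74, 1.45-fold the H2-Aa and 1.49-fold the H2-Ab1 of the other spots. H2-Eb1 was at 1.14-fold there, Ciita at 0.955-fold and B2m at 0.977-fold. The background of PT B was patchy (Moran's I of 0.872 for the summed receptor genes), and its part in these folds was not tested. In PT A 219 of the 620 rich spots held no UMI of the list. Without PT B the 4 members were still called, among 24 of 13081 genes (0.183%). Without PT A only H2-Eb1 was, among 16 of 13666 (0.117%), and without depth bins none was, with 10 of 13426 genes called (0.0745%). In the lungs alone the count was 1 member, H2-Eb1 (0.37, edgeR adjusted p = 8.00e-04), with 32 of 13254 genes called (0.241%) and 18 higher (0.136%). In the PTs alone it was 5 members, all higher, with 98 of 18809 genes called and 68 higher.

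Spots rich in B cell markers had no member called, with 13 of 13715 genes called (0.0948%). Without adjustment edgeR gave 2 of the 9 members and 8.31% of all genes a p under 0.05, and DESeq2 called none, with 8 of 19314 genes called (0.0414%). H2-Eb1 was 1.13-fold, 1.46-fold, 1.01-fold and 1.04-fold higher in PT A, lung A, PT B and lung B (log2 difference 0.20, standard error 0.05, edgeR adjusted p = 0.200). The 10 B cell markers summed to 183 CPM in lung A against a receptor background of 2.05 CPM, to 28.4 CPM in lung B against 1.55 CPM and to 13.6 CPM in PT A against 7.37 CPM, while PT B, at 77.9 CPM against 78.6 CPM, did not exceed its receptor genes. In PT A 442 of the 620 spots counted as rich held no UMI of the list, so most of them were not rich in these markers. In the lungs alone H2-Eb1 was called (0.27, edgeR adjusted p = 0.0214), with 48 of 13273 genes called (0.362%) and 26 higher (0.196%).

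**Figure D4:**
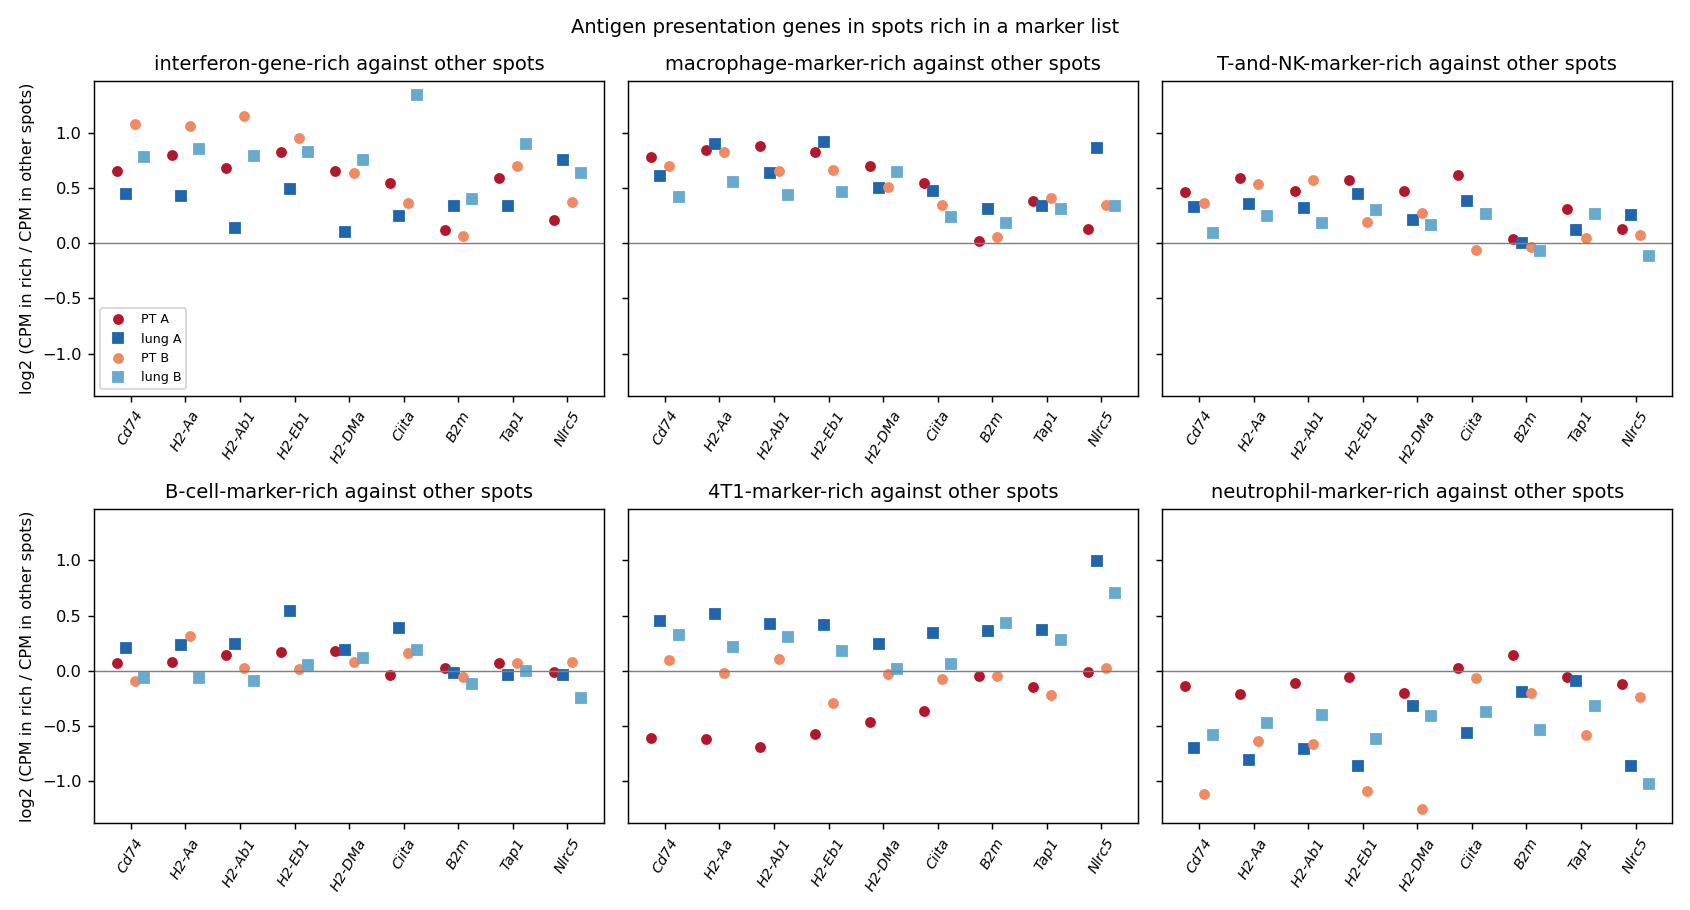
Log2 ratio of the CPM in marker-rich to that in other spots for the 9 genes in each section, for 6 lists, with circles for the PTs and squares for the lungs. The class II genes are above 0 in every section for interferon-induced genes and macrophage markers (14.4% and 13.7% of all genes were), and the 4T1 split shows the lungs above 0 and PT A below 0 on the class II side.

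Within the lung, spots rich in 8 markers of 4T1 cells (such as Csf3, Mmp3 and Inhba) were set against the other lung spots. None of 13253 genes was called by edgeR (0%), with 3109 genes (23.5%) and 2 members at an unadjusted p under 0.05, and DESeq2 called 205 of 3166 genes (6.48%) and no member of the 4 it tested. Nlrc5 was 1.99-fold higher in the rich spots of lung A and 1.63-fold in lung B (log2 difference 0.78, standard error 0.13, edgeR adjusted p = 0.192). All 9 members were above 1 in both lungs, as were 43.2% of all genes, with B2m at 1.28-fold and 1.35-fold, Cd74 at 1.37-fold and 1.25-fold, and H2-DMa lowest in lung B at 1.01-fold. With the spots of a section in 5 bins, from the bin with the lowest to that with the highest share of 4T1 markers, Nlrc5 went from 19.4 to 44.4 CPM in lung A and from 43.0 to 104 CPM in lung B. B2m went from 1416 to 1968 CPM and from 1710 to 2709 CPM, and Cd74 from 1106 to 1708 CPM and from 1065 to 1467 CPM. The macrophage list went up over the same bins, from 507 to 821 CPM and from 1038 to 1284 CPM, as did the interferon list, from 389 to 839 CPM and from 543 to 920 CPM, and the part of either in the levels of the members was not tested.

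In the PTs the same split gave other values. In PT A Cd74 went down from 3804 CPM in the lowest bin to 2043 CPM in the highest, and H2-Ab1 from 584 to 288 CPM, as the macrophage list went from 2806 to 1602 CPM. B2m stayed between 5769 and 6200 CPM there. In PT B Cd74 showed no steady course, with 384 to 545 CPM over the bins. The lung effect minus the PT effect, as an interaction over all 4 sections, was 0.67 for Nlrc5 (standard error 0.15, edgeR adjusted p = 0.333), 0.64 for H2-Aa (0.22, edgeR adjusted p = 0.344) and 0.63 for H2-Eb1 (0.16, edgeR adjusted p = 0.333). No member passed the threshold in the interactions of the 5 splits. Without adjustment edgeR gave 5 of the 9 members a p under 0.05 for the 4T1 split, against 13.3% of all genes. For the other splits it was 1 member (B cell, 4.59% of all genes), 3 (T and NK, 4.45%), 2 (macrophage, 12.8%) and 2 (interferon, 10.9%), and DESeq2 was not run on the interactions.

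**Figure D5:**
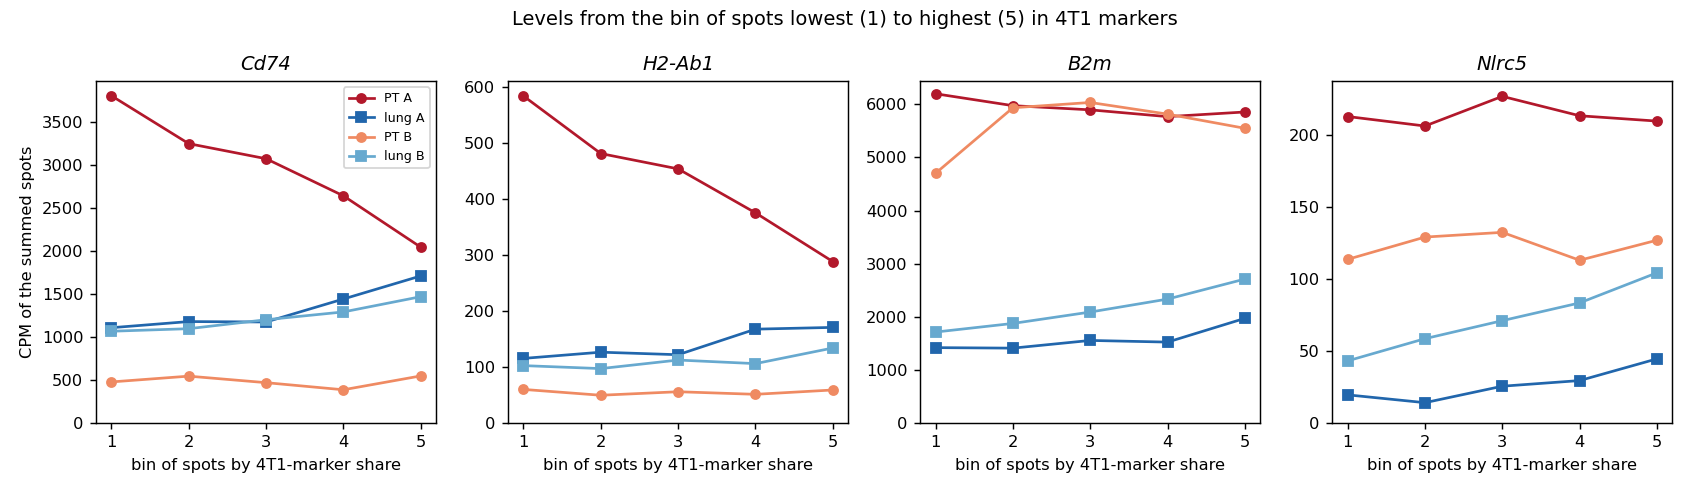
Level of Cd74, H2-Ab1, B2m and Nlrc5, in CPM of the summed spots, from the bin of spots with the lowest (1) to that with the highest (5) share of 4T1 markers in each section. In the lungs the 4 genes are higher in the last bin than in the first, while in PT A Cd74 goes from 3804 to 2043 CPM.

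The remaining 8 lists were split in the same way without a test. In neutrophil-rich spots Cd74 was at 0.907-fold, 0.617-fold, 0.462-fold and 0.667-fold of the other spots in PT A, lung A, PT B and lung B, and H2-Eb1 at 0.962-fold, 0.549-fold, 0.469-fold and 0.653-fold. Nlrc5 was at 0.549-fold and 0.492-fold in the lungs, so the neutrophil-rich spots were on the low side for both MHC classes there. Endothelial-rich spots of the lungs had Cd74 at 0.798-fold and 0.725-fold and Nlrc5 at 0.678-fold and 0.531-fold. Fibroblast-rich spots had H2-Eb1 at 2.05-fold in lung A, 1.27-fold in lung B, 0.971-fold in PT A and 0.580-fold in PT B, with Cd74 at 1.54-fold, 1.14-fold, 0.986-fold and 0.716-fold in the same order. Spots rich in dendritic cell markers had 1.47-fold and 1.12-fold the H2-Aa of other spots in the lungs and 1.09-fold in PT A. In PT A 291 of the 620 rich spots held no UMI of this list. In PT B H2-Aa was at 0.792-fold, and these markers did not exceed the receptor background there (62.2 against 70.7 CPM). Spots rich in alveolar type 2 markers had Cd74 at 1.11-fold in lung A and at 0.831-fold in lung B, on both sides of 1. For the 3 alveolar macrophage markers, each class II member was below 1 in the rich spots of both lungs. Cd74 was at 0.870-fold to 0.931-fold there and H2-Ab1 at 0.789-fold to 0.813-fold, the opposite side to the macrophage split. In lung A 192 of the 420 rich spots held no UMI of this list.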

How the data were processed

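Fixed, paraffin-embedded sections were profiled by the probe-based Visium assay. The values the authors deposited are UMI counts, one for each gene in each spot, written by Space Ranger 2.0.0 for the build mm10 per the file headers and processing notes, without normalization. Spots with more than 200 genes were kept and their UMIs summed per section, or per class of spots. Features with the same symbol (22) were left as in the files. The test was the quasi-likelihood test of edgeR 4.0.16 under R 4.3.3, with TMM factors, filterByExpr and Benjamini-Hochberg adjustment over all genes tested. DESeq2 1.42.0 was an alternative, and Python 3.11.15, numpy 2.4.6 and scipy 1.17.1 gave the rest. The study states no test for these comparisons. The tests were checked on simulated data. There the test of lung against PT recovered 6.25% of 4-fold and 80.3% of 16-fold changes. The 4T1 split of the lungs recovered 1.49% of 1.5-fold and 32.8% of 2-fold changes, and the macrophage split 69.1% and 87.3%. Changes of the size of the member folds in the 4T1 split were thus mostly missed.

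Sections of one mouse pair by animal. The correlation of their deviations from the group means was -0.293, so sections of one mouse did not deviate in the same direction. With 2 mice this value is the same for both by construction. The p-values measure only the spread between these sections. Named genes are the 9 members, the wider-list genes called in lung against PT with the same direction in both mice, and the 5 genes following Cd74 and B2m. Examples from the marker lists (Csf1r and Mrc1 with levels) and H2-DMb1, which was not called in lung against PT, are named as well. Those named from the interferon split were picked after their values were seen. The members, lists and tests were chosen with earlier results of these data known. Human samples, histology images and foci outlines were not used here. Intervals cover counting error only (95% Poisson). The alternatives were other scalings, filters, blocks, depth limits, splits and left-out sections, and 2 kinds were added after the data were seen (1 tissue alone, crossed pairing), as was the 4T1 interaction.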

Additional observations from a re-analysis of the deposited data

Results flagged for a closer look

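In 4T1-marker-rich against other spots, 6 members were higher in the rich spots of both lungs and lower in those of both PTs, as were 12.4% of all genes. Some of the PT values were close to 1, at 0.969-fold for B2m in both PTs and 0.979-fold for H2-DMa and 0.984-fold for H2-Aa in PT B. The lung effect minus the PT effect on the log2 scale was 0.642 for H2-Aa, 0.63 for H2-Eb1, 0.362 for Tap1, 0.297 for Ciita, 0.297 for B2m and 0.283 for H2-DMa, with edgeR adjusted p of 0.333 to 0.594, so none passed the test of the difference. In the B cell split Tap1 went opposite ways in the tissues by small amounts (-0.0841, edgeR adjusted p = 1.0). The groups of 2 sections were too small to look for a section far from the others.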

How the results depend on the processing

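The estimates of the class II members in lung against PT depended on which PT was in the fit. Of 117 values of members in this comparison, 17 changed sign under alternatives. Leaving out each section gave -1.05 to 2.02 for Cd74, -2.09 to 1.61 for H2-Aa, -1.63 to 1.83 for H2-Ab1, -1.39 to 2.03 for H2-Eb1, -1.18 to 1.48 for H2-DMa, -0.84 to 0.64 for Ciita and -1.30 to 0.18 for Tap1, and a range below 0 for B2m and Nlrc5. With the mouse as a replicate block Cd74 (0.38), H2-Eb1 (0.16) and H2-DMa (0.0326) changed sign, and with the crossed pairing as a block they had 0.38, 0.15 and 0.0235. The count of genes called, 1139, became 3827 with DESeq2, 328 with library size scaling, 185 with upper quartile scaling, 2022 without a filter, 681 with spots of 1000 UMIs or more, 98 with the receptor background subtracted, 1817 with the mouse block, 2565 with the crossed pairing, which called 1 member, and 883 to 6604 without 1 section. Of the calls 84.55% were higher in the lung, against 44.6% with DESeq2, 70.88% with the crossed pairing and 21% without PT A. The median over all genes was -0.31 with library size scaling and -0.28 with upper quartile scaling, 0.17 with the background subtracted, -0.16 with DESeq2, -0.11 without a filter, -0.23 to -0.0010 without 1 section and within 0.011 of 0 in the remaining settings. The count of members called, 0, was 2 with DESeq2, 1 without a filter, 1 with the mouse block and 0 to 2 without 1 section.

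In the splits, no gene or member was called without the section as a replicate block. The 4T1 split called 205 genes with DESeq2, and Ciita had -0.14 with the highest 10% of spots. The B cell split (13 genes) had 8 with DESeq2, 97 without a filter (12 higher), 48 in the lungs with 1 member, and 13 to 85 genes and 0 to 1 members without 1 section. The T and NK split (23) had 38 with library size scaling and 69 without a filter (28 higher). It had 43 with the highest 10%, 10 without depth bins (0 members) and 98 genes with 5 members in the PTs. The lungs gave 32 genes with 1 member, and fits without 1 section 16 to 53 genes and 1 to 5 members. The macrophage split (53) had 126 with DESeq2, 24 with library size scaling (22 higher, 2 lower) and 375 without a filter (68 higher). It had 807 in the lungs (219 higher) and 0 genes without depth bins. With the highest 10% it had 57 of 13357 genes (15 higher), 3 of them members. Fits without 1 section had 0 to 272 genes and 0 to 5 members. The interferon split (375, 177 of them higher) had 177 with DESeq2 (123 higher), 272 with library size scaling (209 higher), 2028 without a filter (200 higher), 569 with the highest 10% (184 higher), 239 without depth bins, 1070 in the lungs, 164 in the PTs, and 70 to 610 genes and 3 to 8 members without 1 section. The causes were not tested. Of 394 values of members under alternatives, 307 kept direction and side of the threshold, 54 lost the call, 15 gained it and 18 changed sign. With 2 mice and 1 section per tissue, the test of lung against PT can miss large differences as well as small ones, and all within-section tests lean on the section block.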
